A study of Mus musculus with 18 samples.

Results

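RAD21 peaks were examined at Il4ra, Il21r, Il2rg, Jak1, Jak3, Stat6, Socs1, Fcer2a, Cish and Il13ra1, 10 of the 22372 protein-coding genes annotated in mouse. Apart from Il21r, the gene of the IL-21 receptor beside Il4ra, these carry or answer the interleukin-4 signal. A peak was counted for a gene when its centre lay in the gene body or within 40 kb of it, and overlapping peaks of separate lists (1 bp or more) were joined into 1 site. Il4ra and Il21r are neighbours and were treated as 1 locus, which left 9 loci. Their windows held 22 of the 18957 sites in the 12 peak lists. The sites were selected on the position of peaks in these 12 lists, and the genes were chosen with earlier results of the same lists known, so the presence of peaks near them is a description and carries no test. RAD21 is the kleisin subunit of cohesin, and the lists came from chromatin immunoprecipitation and sequencing of purified splenic B cells from wild-type C57BL/6 mice (C57BL/6J in the study's methods) aged 8 to 10 weeks. Cells were taken at rest, or after 48 h or 96 h in culture with IL-4 (2 ng/ml) and LPS (50 µg/ml), which drive the switch to IgG1. The 96 h-stimulated cells were further enriched for IgG1-positive cells, so that longer culture and this enrichment cannot be told apart. Each time point had 3 replicates of 12 mice and 1 pooled list made from the merged reads of its replicates. Every stimulated sample received LPS together with IL-4, so that an answer to either agent alone was not measured.

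IL-4 binds the IL-4 receptor alpha chain, encoded by Il4ra, which then pairs with the common gamma chain (Il2rg) or with the IL-13 receptor alpha chain (Il13ra1). In the pairing with the common gamma chain, the attached kinases JAK1 and JAK3 phosphorylate STAT6. STAT6 then enters the nucleus and drives IL-4 target genes such as Fcer2a, the gene of the low-affinity IgE receptor CD23 on B cells. SOCS1 and CIS, the product of Cish, are cytokine-induced inhibitors that dampen such signalling. Cohesin holds distant stretches of DNA together in loops, often where CTCF is bound.

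Most of the 22 sites held a CTCF-like sequence, and the sites on which the results below turn are shown with it. The motif spanned 20 bases, with GCCACCAGGGGGCGCCAGAG as its most frequent letters, and was learned from 599 RAD21 sites called in at least 6 replicates on 12 chromosomes that hold none of the 10 genes. Each line gives 60 bases of mm9 on the strand of the best match, read 5′ to 3′, with the motif in capitals. The first pair is the whole of the Il4ra-Il21r locus, the next 3 are the sites around Cish, and the following 4 lie upstream of Stat6, at the start of Socs1 and upstream of Fcer2a. The last, upstream of Jak1, is shown because it held no match, and its capitals mark only the best-scoring stretch of a repeat.
Il4ra-Il21r 1, chr7:132725059-132725118, minus strand: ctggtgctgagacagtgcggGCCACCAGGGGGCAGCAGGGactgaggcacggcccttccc
Il4ra-Il21r 2, chr7:132782570-132782629, minus strand: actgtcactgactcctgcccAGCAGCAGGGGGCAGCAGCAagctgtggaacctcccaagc
Cish 1, chr9:107193405-107193464, minus strand: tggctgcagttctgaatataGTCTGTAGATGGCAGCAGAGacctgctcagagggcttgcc
Cish 2, chr9:107196733-107196792, plus strand: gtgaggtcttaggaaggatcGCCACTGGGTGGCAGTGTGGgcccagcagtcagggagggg
Cish 3, chr9:107238403-107238462, minus strand: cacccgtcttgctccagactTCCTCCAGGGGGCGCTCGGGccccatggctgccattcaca
Stat6 1, chr10:127078970-127079029, plus strand: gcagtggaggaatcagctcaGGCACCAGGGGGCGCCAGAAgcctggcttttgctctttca
Socs1 1, chr16:10785248-10785307, minus strand: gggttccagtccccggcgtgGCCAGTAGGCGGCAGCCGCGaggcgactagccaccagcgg
Socs1 2, chr16:10786597-10786656, minus strand: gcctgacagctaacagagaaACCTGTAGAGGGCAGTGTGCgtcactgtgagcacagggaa
Fcer2a 4, chr8:3718703-3718762, plus strand: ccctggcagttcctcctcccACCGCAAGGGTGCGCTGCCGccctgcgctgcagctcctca
Jak1 3, chr4:100973042-100973101, plus strand: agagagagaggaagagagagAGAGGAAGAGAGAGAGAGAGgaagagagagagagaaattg

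Values are given as score percentiles, the place of a peak's score among all peaks of the same list, where 100 is the top, 0 the bottom and tied scores share the middle place. The lists of replicates 1, 2 and 3 held 2097, 821 and 3578 peaks in resting B cells. At 48 h they held 1538, 5254 and 1563 peaks, and at 96 h 2807, 4552 and 8579. The pooled lists held 5690, 5579 and 12806 peaks for resting, 48 h- and 96 h-stimulated B cells. The same number of unique read positions was sampled from each library before peaks were called, but how many reads made up each single peak is unknown, and a missing peak does not show that RAD21 was absent. Replicate 2 of 48 h-stimulated B cells stood apart. The Jaccard index, the number of sites shared by a pair of lists over the number in either, was between 0.0146 and 0.0306 for this replicate with each other one, against 0.0863 to 0.425 among the other 8. It held 5254 peaks, of which 2 lay in the windows of the 10 genes, and values at 48 h are therefore also given without it.

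The Il4ra-Il21r locus on mouse chromosome 7 held 2 sites, and neither was called in a 48 h replicate. Both genes are transcribed from the plus strand, Il4ra from chr7:132695785-132722986 and Il21r, which encodes the IL-21 receptor, from chr7:132746943-132777084. Both sites were intergenic and lay downstream of a gene body. The only other protein-coding gene reaching into the window was Gtf3c1. The nearest site beyond the 2 was 80.2 kb away from the gene bodies.

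The site beyond the end of Il21r was the stronger. It covered chr7:132782398-132782732 and its centre lay 5.48 kb past the gene end, 35.6 kb from the start of Il21r and 86.8 kb from the start of Il4ra. In resting B cells the score percentiles were 16.3, 95.4 and 98.5 in replicates 1, 2 and 3. In 96 h-stimulated B cells they were 82.5, 80.3 and 80.3. All 6 resting and 96 h replicates thus had the peak and none at 48 h did, so that the groups did not overlap in presence. The 48 h lists of replicates 1 and 3 held 1538 and 1563 peaks. Lists held 821 to 3578 peaks at rest and 2807 to 8579 at 96 h. The part of list length in this absence was not tested. Replicate 1 was low among the resting samples, while the 96 h replicates lay close together. The pooled lists gave percentiles of 97.8 for resting, 49.2 for 48 h and 94 for 96 h. The merged 48 h reads thus did pass the caller's threshold, in the middle of their list.

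Presence in all 3 resting and no 48 h replicates was rare in the genome. It was found at 126 of the 9903 sites called in at least 1 of these 6 replicates, or 1.27%. Presence in all 3 96 h and no 48 h replicates was more common, with 827 of 14534 sites or 5.69%. Both totals include sites called only in 48 h replicate 2, which held 5254 peaks and shared few sites with the other lists. Such sites lower the shares, which were not recomputed without that replicate. This applies to every share of all sites below that involves the 48 h replicates. The Il21r site was among both groups. Leaving out 48 h replicate 2 could not change this, because that list lacked the peak, so the omission is no check on the pattern. With 3 replicates against 3, an exact test on a single site cannot give a two-sided p under 0.1, so no p is given for it.

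The site between the genes covered chr7:132724938-132725222, 29.3 kb downstream of the Il4ra start and 21.9 kb upstream of the Il21r start. Its percentiles were 64.1 and 45.8 in resting replicates 1 and 3 and 1.26 in 96 h replicate 1, where the peak was near the bottom of its list. It was absent from resting replicate 2, from the other 96 h replicates and from the 48 h replicates. The pooled lists held it for resting (72.2) and 96 h (45.4) but not for 48 h. Its motif scored highest among the 22 sites, at 25 log2 odds, although it was called in only 3 of 9 replicates. The Il21r site scored 17.2, and both motifs lay on the minus strand, opposite to the direction of both genes.

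**Figure D1:**
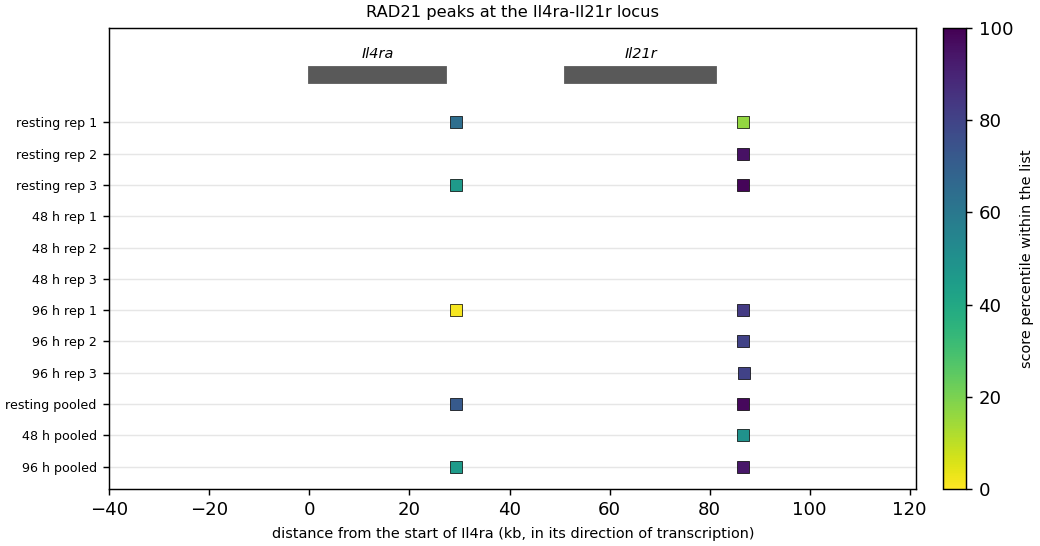
RAD21 peaks at the Il4ra-Il21r locus, 1 row per peak list. The horizontal axis is the distance in kb from the start of Il4ra, grey bars are the gene bodies, and the colour of each square is the score percentile within its list. The 3 rows of 48 h replicates are empty, while the site at 86.8 kb has a square in every resting and 96 h row and in the 48 h pooled row.

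At the other receptor chains no peak was called in any replicate. Il2rg, at chrX:98459717-98463594, had no peak in any of the 12 lists, and the nearest site lay 61.6 kb from it. Il13ra1, at chrX:33652105-33711254, had 1 site, chrX:33723726-33723887, 12.6 kb past its end. This site was called only in the pooled 96 h list, the longest of all, at a percentile of 37.7, and in no replicate.

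At the kinase genes the sites were called in 4 of 9 replicates at most, with replicate percentiles from 4.81 to 79.6. Jak1, at chr4:100824972-100937887 on the minus strand, had 3 sites. The site in its intron 11, chr4:100840859-100841130, had percentiles of 50.1 in resting replicate 3 and of 66.9 and 43 in 96 h replicates 2 and 3. The site beyond its end, chr4:100818762-100819009, lay in intron 11 of Raver2 and had 71 in 48 h replicate 3 and 41.4 and 79.6 in 96 h replicates 2 and 3. No time point had either peak in all of its replicates. The last site, 35.2 kb upstream of Jak1, was 65 bp long and was called only in replicate 2 of 48 h-stimulated B cells, at a percentile of 47.6. An unbroken AG repeat of 29 bases lay within 100 bp of its centre, and it was 1 of the 2 peaks of that replicate in the 10 windows. Without the replicate, Jak1 had 2 sites.

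Jak3, at chr8:74200195-74214474, had 1 site called in at least 3 replicates. It covered chr8:74184730-74185009, 15.3 kb upstream of the start and in intron 13 of Unc13a. Its percentiles were 76.5 in resting replicate 1, 46.8 in 48 h replicate 3, and 54.8 and 65.1 in 96 h replicates 2 and 3, and all 3 pooled lists held it (43.8, 32.5 and 82.7). Every time point thus had the peak in some replicate, and none had it in all. Of the other sites, both past the Jak3 end, 1 was near the bottom of the lists of 96 h replicates 2 and 3 (7.08 and 4.81) and the last was in the pooled 96 h list alone.

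Stat6, the gene of the transcription factor that carries the IL-4 signal, had a RAD21 site just upstream of its start, at chr10:127078875-127079177, with the centre 1.02 kb from it. The percentiles in resting B cells were 41.7, 16.8 and 67. In 48 h-stimulated B cells only replicate 1 had the peak, at 66.3. The 96 h replicates gave 13.7, 21.1 and 82. The site was called in 7 of 9 replicates and in all 3 pooled lists, at 81.2, 74.8 and 82, which were close to each other. Presence therefore overlapped between the time points, and the spread within resting and within 96 h replicates was wider than the difference between the pooled lists. The 3 other sites in the Stat6 window lay beyond the end of the gene, near Nab2 and Tmem194. They were called in at most 1 replicate each, at a percentile of 10.6, and at no more than 16.8 in a pooled list.

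Socs1, the gene of an inhibitor of JAK kinases, was the only member with its replicate peaks confined to 1 time point in these lists. It covers chr16:10783901-10785629 on the minus strand and had 2 sites, one in intron 1 (chr16:10785110-10785321), 0.414 kb from the start, and one 0.978 kb upstream (chr16:10786496-10786718). The first had percentiles of 32.8 and 64.8 in 96 h replicates 1 and 3 and the second 45.5 in 96 h replicate 3. No resting or 48 h replicate had a peak at either. The pooled resting list nevertheless held the upstream site, at 38.6, and the pooled 96 h list held both, at 65.9 and 53.3. Neither site was in all 3 96 h replicates, and the mean list was longer at 96 h although replicates of the time points overlapped in length. The part of list length in this pattern was not tested.

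Cish, which encodes the inhibitor CIS, had the highest score percentile among the 10 genes in each 96 h replicate. The gene covers chr9:107198357-107205115 and had 3 sites. The first, chr9:107193264-107193556, lay 4.95 kb upstream of Cish and 1202 bp upstream of the divergent gene Mapkapk3. Its percentiles were 42.7, 12.5 and 95.5 in resting replicates and 99, 96.2 and 97.8 at 96 h, and no 48 h replicate had it. The pooled lists gave 93.2, 7.29 and 99.3, so that the 48 h peak was near the bottom of its list. Among the 22 sites this was the only one beside the Il21r site with a peak in every resting and 96 h replicate and none at 48 h.

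The second Cish site, chr9:107196632-107196934, lay 1.57 kb upstream of the start and was also called at 48 h. Its percentiles were 46.7 and 50.1 in resting replicates 1 and 3, 86.1 and 94.8 in 48 h replicates 1 and 3, and 94.6, 94.4 and 97.4 at 96 h. Where it was called, every stimulated value was above both resting values. The third, chr9:107238239-107238565 in intron 4 of Hemk1, was 33.3 kb past the end of Cish. It had 46.7 in resting replicate 1, 86.5 in 48 h replicate 3, and 94.8, 99.6 and 79.3 at 96 h, so its single resting value was again below all others. The pooled lists put both of these sites at the same percentiles, 74.2 for resting, 72.7 for 48 h and 99 for 96 h. A percentile ranks a peak among those called in its own list, and the lists differ in length, so it does not measure the amount of RAD21.

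**Figure D2:**
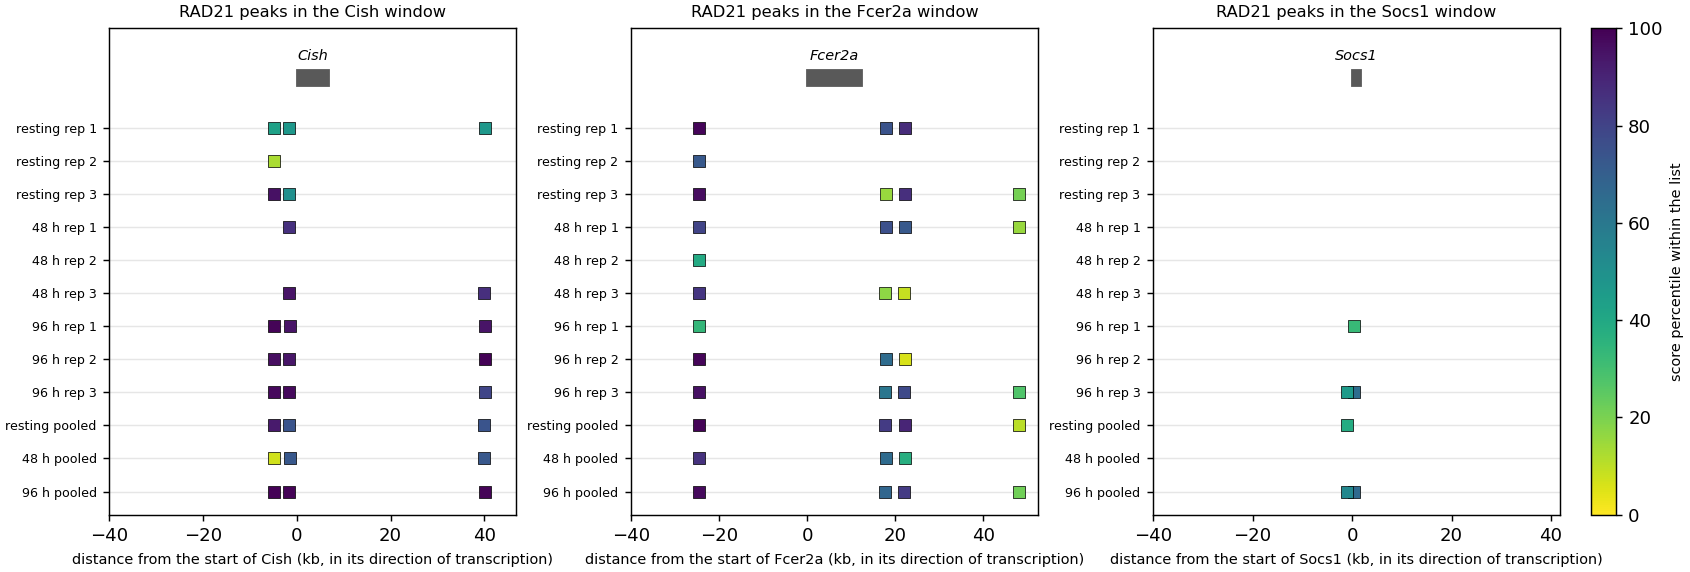
RAD21 peaks in the windows of Cish, Fcer2a and Socs1, drawn as distance in kb from the start of each gene in its direction of transcription, with 1 row per peak list. Grey bars are the gene bodies and colour is the score percentile within the list. Cish has dark squares upstream in the 96 h rows, the Fcer2a site at 24.6 kb upstream is in all 12 rows, and the replicate squares of Socs1 are in 96 h rows.

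Fcer2a, the STAT6 target that encodes CD23, was flanked by the most widely called site of the whole group. The gene covers chr8:3681737-3694174 on the minus strand. The site chr8:3718561-3718916, 24.6 kb upstream of it in intron 3 of Clec4g, was in all 12 lists. Its percentiles were 98.5, 72.5 and 96.5 in resting B cells, 80, 39.4 and 84.6 at 48 h and 33.6, 98.5 and 95.6 at 96 h. The values of the 3 time points overlapped. It was 1 of the 2 peaks of 48 h replicate 2 in the 10 windows, and without that replicate it was still in every remaining list.

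Another 2 sites downstream of Fcer2a were each called in 2 replicates of every time point. The nearer, chr8:3676219-3676509, overlapped the untranslated exon 1 of Trappc5 and had percentiles of 74.6 and 15.6 in resting replicates 1 and 3, 75.6 and 17.1 in 48 h replicates 1 and 3, and 65.1 and 60.9 in 96 h replicates 2 and 3. The other, chr8:3671896-3672188, had 87.6 and 86.6, 72.3 and 8.61, and 5.9 and 77.9 in the same replicates. Replicate 2 of resting and of 48 h-stimulated B cells and replicate 1 at 96 h lacked both. The farthest site, chr8:3645887-3646109, was called in 1 replicate of each time point at 20.8, 15.4 and 27.7. No Fcer2a site thus separated the time points by presence.

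**Figure D3:**
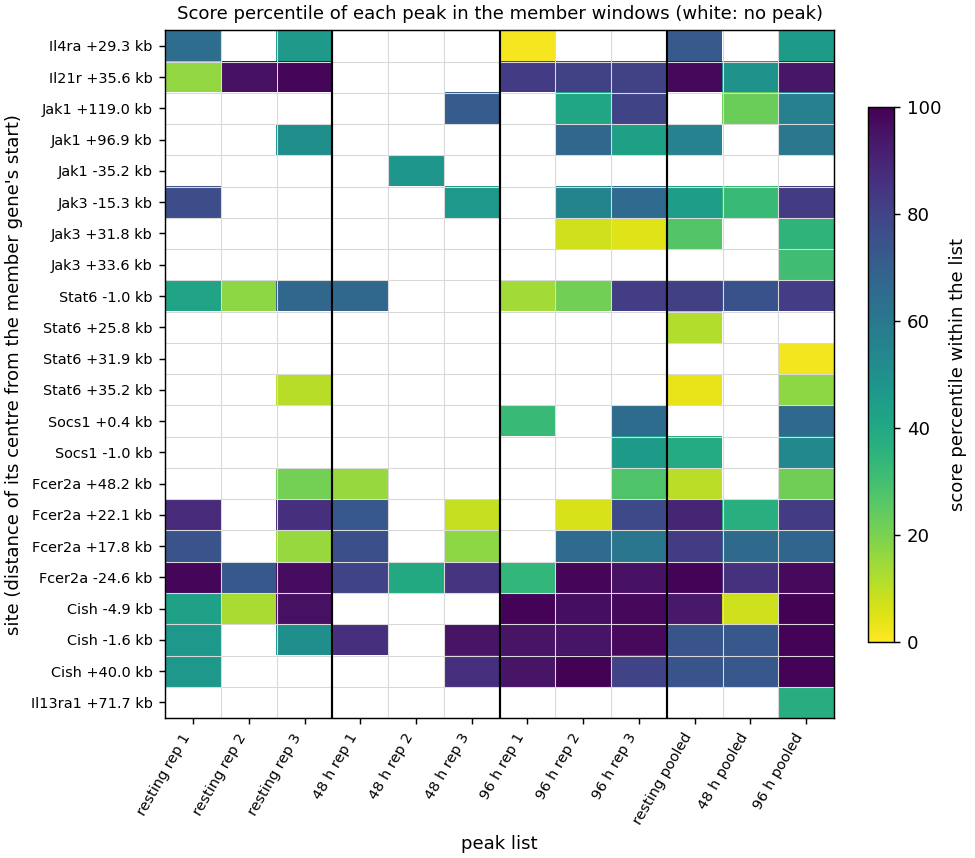
Score percentile of each of the 22 sites (rows, named by gene and by distance of the site's centre from the gene's start) in each of the 12 peak lists (columns). White cells have no peak. The column of 48 h replicate 2 is the emptiest, with 2 sites, followed by resting replicate 2 with 4, and the Il21r site at 35.6 kb and the Cish site at 4.95 kb upstream fill every resting and 96 h column but no 48 h replicate column.

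Over all 10 genes, the sites with a peak in at least 1 replicate numbered 13 at rest, 10 at 48 h and 16 at 96 h, and those with a peak in all 3 replicates numbered 4, 1 and 6. Of the 22 sites, 8 were called in some replicate of every time point, 4 in resting and 96 h but not 48 h replicates, 3 at 96 h alone, and 4 only in pooled lists. In all, 13 of the 22 were called in at least 3 replicates, beside 3759 (19.8%) of the 18957 sites of all lists. Sites only in pooled lists were 3747 (19.8%) of these. The shares of all sites for the other counts in this paragraph's first lines are not given, so those counts are description only. Presence in all resting and no 48 h replicates held for 2 of the 15 sites called in these replicates, or 13.3% beside 1.27% of all sites. Presence in all 96 h and no 48 h replicates held for 2 of 17 sites, or 11.8% beside 5.69%. These are the same 2 sites, near Il21r and Cish, and the 2 counts share the 48 h replicates. The shares of 1.27% and 5.69% are lowered by sites called only in 48 h replicate 2. Of the resting and 48 h count, 1 site was left under a stricter score minimum and 0 with every list limited to its 821 highest-scoring peaks. None of the 22 sites was in all 96 h and no resting replicates, beside 5.85% of all sites. None was in all resting and no 96 h replicates (0.0876% of all sites), in all 48 h and no resting replicates (0.0606%), or in all 48 h and no 96 h replicates (0.0206%). Since the genes were chosen with these lists in view, no share is read as particular to them.

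The Il21r and Cish sites had the same replicate pattern, which each of them shared with 55 other sites of the genome, the other of the pair included. Ranked by the median percentile over the 6 replicates, the Cish site was the highest of this group, at 95.9, and the Il21r site ranked 14, at 81.4. The next after the Cish site were near Afmid (chr11:117685982-117686348, 93), Cstf1 (chr2:172203878-172204192, 92.9) and Sp110 (chr1:87478214-87478513, 89.6).

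The windows held most peaks at 96 h and fewest at 48 h, but this order did not hold once list length was taken into account. The number of peaks was 10, 4 and 11 in resting B cells, a mean of 8.33 ± 3.79 (SD, n = 3). It was 6, 2 and 7 at 48 h, a mean of 5 ± 2.65 (SD, n = 3), and 8, 12 and 15 at 96 h, a mean of 11.7 ± 3.51 (SD, n = 3). The ranges of resting and of each stimulated time point overlapped, while every 96 h count was above every 48 h count. Per 1000 peaks of the list the order changed, with 4.24 ± 1.01 for resting, 2.92 ± 2.22 for 48 h and 2.41 ± 0.584 for 96 h (SD, n = 3 each). Every resting value, the lowest of which was 3.07, was then above every 96 h value, the highest of which was 2.85. With 48 h replicate 2 left out, the 48 h means were 6.5 peaks and 4.19 per 1000. Longer lists had fewer window peaks per 1000 within the resting and within the 96 h replicates, where the longest list of each, that of replicate 3, gave 3.07 and 1.75. With every list limited to its 821 highest-scoring peaks, the means were 4.33, 3 and 3.67 peaks for resting, 48 h and 96 h. The 48 h mean includes replicate 2, whose window peaks, at percentiles 47.6 and 39.4 of 5254 peaks, fell outside its 821 highest. That replicate thus added none to the mean, which was not recomputed without it. No place of 48 h in the order at equal length is therefore read from it.

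**Figure D4:**
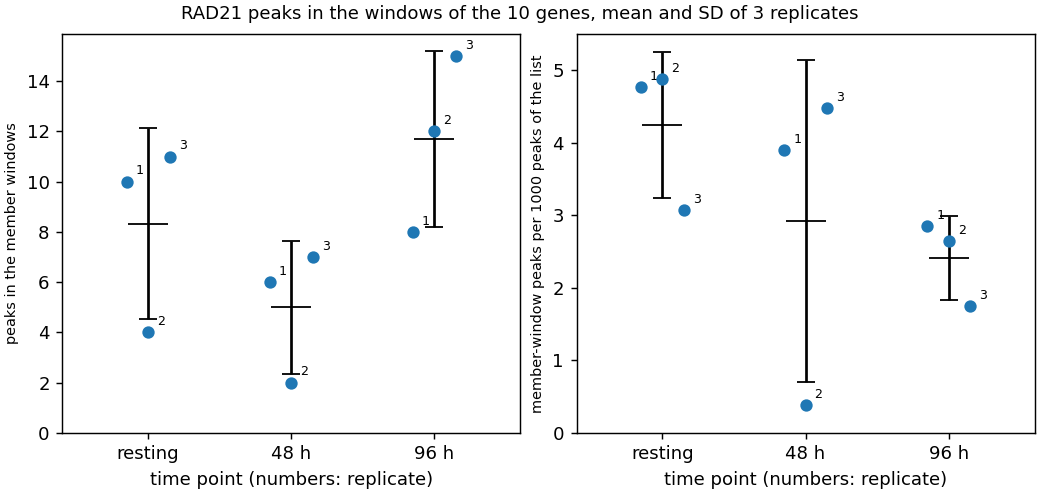
RAD21 peaks in the windows of the 10 genes in each replicate, as counts (left) and per 1000 peaks of the list (right). Points are replicates, numbered, and bars are the mean and SD of 3 replicates. Counts are highest at 96 h (11.7 ± 3.51), whereas counts per 1000 peaks are highest in resting B cells (4.24 ± 1.01), and 48 h replicate 2 is the lowest point of both plots.

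Most sites lay outside the gene they were counted for, with 2 of 22 inside a member gene body, in intron 11 of Jak1 and in intron 1 of Socs1. Of the 10 genes, 9 had a site, with a median of 2.5 sites per gene and 2.13 sites per 100 kb of window. Windows made alike around all protein-coding genes held a site in 69.6%, with a median of 1 and 1.09 per 100 kb. Of the 22 sites, 10 (45.5%) lay within 2 kb of the start of a protein-coding gene, compared with 12% of the 14986 sites in the window of any such gene. In 4 cases this was the start of a member, namely Stat6, Socs1 with both sites, and Cish. The other starts belonged to the neighbours Nab2, Tmem194, Trappc5, Clec4g, Mapkapk3 and Hemk1. The comparison of 45.5% with 12% was not split by how often a site was called. Of the 22 sites, 13 were called in at least 3 replicates, whereas 19.8% of all sites were.

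Distance from the gene decided which sites were counted. The outermost sites inside the limit of 40 kb were 35.7 kb from Fcer2a, called in 3 replicates, and 35.2 kb from Jak1, called in 1. The nearest outside it were 41.3 kb from Jak3 (chr8:74255604-74255854, 2 replicates) and 49.7 kb from Cish (chr9:107148596-107148762, 1 replicate). Around Il4ra-Il21r no site lay near the limit on either side.

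The share of the 22 sites with a match to the CTCF-like motif was 86.4% (19 sites, exact binomial 95% interval 65.1 to 97.1, which covers counting error only). Matches scored 9.79 log2 odds or more within 100 bp of the centre on either strand, a level passed by 5% of windows 1 kb away from training sites. On chromosomes not used for learning, 65.9% of the 6489 other sites and 5.62% of windows 1 kb from them had a match. A further unused chromosome that holds none of the 10 genes was left out of these shares. The comparison depended on how often a site was called. Among sites called in at least 3 replicates the share was 92.3% (12 of 13) for the members and 92.7% for the others, and among those called in fewer it was 77.8% (7 of 9) and 59.3%. The 3 sites without a match were the Jak1 repeat, the Stat6 site near Nab2 and the farthest Fcer2a site. Of the 19 matches, 6 were on the plus strand. Tandem repeats of 20 bases or more, with units of up to 4 bases, were found at 1 of the 22 sites (4.55%) and at 19.7% of all other sites. The repeat shares were not split by how often a site was called.

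Words bound by STAT proteins were no more frequent at these sites than elsewhere. Within 200 bp around the centre, TTCNNNGAA was present at 1 of 22 sites (4.55%), the one between Il4ra and Il21r, beside 4.91% of all other sites. The longer TTCNNNNGAA, the spacing that STAT6 prefers, was at none of the 22 and at 4.4% of the others. Both words read the same on either strand. The word at the Il4ra-Il21r locus lay 26 bp from the motif printed in capitals and shared no base with it. A match is a description of the letters and does not show binding.

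Another 15 genes of the pathway were given the same windows. They were the kinases Tyk2 and Jak2, the decoy receptor Il13ra2, Stat3, Stat5a and Stat5b, and the adaptors Irs1 and Irs2. The rest were the regulators Socs3, Ptpn6 and Ptpn11, and the IL-4-responsive or B cell genes Il4i1, Nfil3, Bcl6 and Cd86. A site was found for 14 of the 15, all but Il13ra2, beside 69.6% of all protein-coding genes. For 6 of them a site was called in at least 3 replicates, a count whose share of all genes is not given. The 31 sites gave a median of 2 per gene, beside 1 for all protein-coding genes. Of the 31, 9 were called in at least 3 replicates, beside 19.8% of all sites. Bcl6, a repressor needed in germinal centre B cells, had the most sites, with 7.

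Il4i1, an IL-4-induced amino acid oxidase, had a single site, chr7:52080305-52080566 in its intron 1, that was called in resting replicates alone. The percentiles were 64.4, 65.6 and 75.7 in resting B cells, and no stimulated replicate had the peak. The pooled lists held it at 94.6 for resting and at 9.78 for 96 h. It was 1 of 22 sites of the 15 genes (4.55%) in all resting and no 96 h replicates, beside 0.0876% or 9 sites of the genome. It was also 1 of 18 (5.56%) in all resting and no 48 h replicates, beside 1.27%. These shares rest on 1 site, which is named because it had the pattern, and are description only. A site in intron 20 of Stat3, chr11:100754794-100755067, had 47 in resting replicate 3 and 13.7, 51.8 and 85.8 at 96 h, with no peak at 48 h. A site beside Ptpn11, chr5:121665448-121665752, had 20.2 and 10.6 in resting replicates 1 and 3 and 44.1, 49.3 and 72.4 at 96 h. No 48 h replicate had this peak, but the pooled 48 h list held it at 14.8, beside 40.1 for resting and 85.8 for 96 h. The Stat3 and Ptpn11 sites were the 2 of 25 sites of the 15 genes, or 8%, in all 96 h and no 48 h replicates, beside 5.69% of all sites. In all 96 h and no resting replicates there were 0 of 22, beside 5.85% of all sites. In all 48 h and no resting replicates there were 0 of 18 (0.0606% of all sites). In all 48 h and no 96 h replicates there were 0 of 25 (0.0206%).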

How the data were processed

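RAD21 peak lists of resting, 48 h- and 96 h-stimulated splenic B cells were analysed, 3 replicates and 1 pooled list per time point. Per the paper's methods, the authors used Bowtie 2 and mm9 for alignment, sampled the same number of unique positions per library, and used MACS 2 with input as control and an FDR of 0.05. The deposited value of each peak is a score, whose statistic is not named in the sources used here. It served only for ranks within a list or as a minimum. The 9 input samples have no list of their own.

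Peaks were joined, assigned and ranked in Python 3.11.15 with numpy 2.4.6, scipy 1.17.1 and matplotlib 3.10.9, after tests on simulated data. Genes came from GENCODE release M1 on NCBIM37, which is mm9. None of the 54864 peaks lay past a chromosome end. The members and lists were chosen with earlier results of these data known. Every site at Il4ra-Il21r, and elsewhere every site called in at least 3 of 9 replicates, was given in full, while values at sites called in fewer replicates (such as those of Socs1, Il13ra1 and the repeat at Jak1) were added after they had been seen. The genes of the wider pathway list are named by their sites in every replicate of one time point and none of another, and Bcl6 was added after its value was seen. The motif was built from the 8-base word AGAGGGCA, and 91.5% of its 599 training sites had a match. Alternatives changed the window, the assignment, the overlap, the score minimum, the list length, the motif threshold and the replicates.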

Additional observations from a re-analysis of the deposited data

How the results depend on the processing

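Of 226 recomputed values of 15 results, 199 stayed within the replicate spread or within 1.5 times the count, and 27 moved. Some of the 199 could not move, such as values of a time point when a replicate of another was left out. The count is therefore no measure of robustness. The window mattered most. With 10 kb in place of 40 kb the 22 sites became 12, the 96 h mean of 11.7 peaks became 8, and the peaks per 1000 became 3.08 for resting and 1.69 for 96 h. With the gene body alone there were 2 sites, 0 at Il4ra-Il21r, means of 0.333, 0 and 1.33 peaks, 0.0932, 0 and 0.27 per 1000 (resting, 48 h and 96 h), and 0 sites in all resting or all 96 h and no 48 h replicates. No other alternative moved the 2 Il4ra-Il21r sites. With every replicate list limited to its 821 highest-scoring peaks, the means were 4.33 for resting, 3 for 48 h and 3.67 for 96 h. Per 1000 they were 5.28, 3.65 and 4.47. The 48 h values include replicate 2, which had no window peak left, and were not recomputed without it. No place of 48 h in the order is therefore read from them. At this length the sites in all resting and no 48 h replicates became 0. Those in all 96 h and no 48 h replicates became 1, and those in all 96 h and no resting replicates 1. Under the stricter score minimum of 8.14 for replicates, 1 site was in all resting and no 48 h replicates. Leaving out each replicate gave 0 to 2 sites in all 96 h and no resting replicates (2 without 96 h replicate 1, 1 without 96 h replicate 2 or resting replicate 1) and 2 to 4 in all 96 h and no 48 h replicates (4 without 96 h replicate 1). With a motif threshold of 16.5 log2 odds, passed by 1% of windows, 59.1% of sites matched. The cause of these changes was not tested beyond the narrower windows and shorter lists, which hold fewer peaks by construction. No paired analysis was possible because no result comes from a test.

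List length varied within and between time points, the score's statistic is not named, the reads behind single peaks are unknown although an equal number of positions was sampled per library, and window peaks cannot be tied to the gene they are counted for, since every window holds other genes too.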
